A study of Mus musculus with 2 samples.

Results

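The microRNA (miRNA) genes that lie antisense to Rtl1 in the imprinted Dlk1-Dio3 region of mouse chromosome 12 were examined in hippocampus. Members were chosen by position: Mir431, Mir433, Mir127, Mir434, Mir432 and Mir136, which lie on the plus strand opposite Rtl1, and Mir3071, which lies on the minus strand opposite Mir136. They are 7 of the 2202 miRNA genes in the tables. The rule of choice used no measured value, but earlier results of these data were known when it was made. Small RNAs below 30 bases were sequenced from hippocampus tissue of female B6CASTF1/J mice aged 2 months, F1 hybrids of a laboratory strain and a castaneus-derived strain. There is 1 group, sequenced as 2 libraries numbered biological replicate 1 and 2, and no treatment or mutant allele is named. The tissue records are separate and the donor record is shared, so differences between replicates may in part be technical, and the test below measures only those differences.

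The Dlk1-Dio3 region is imprinted: protein-coding genes such as Dlk1 and Rtl1 are expressed from the paternal chromosome, and its non-coding RNAs and miRNAs from the maternal one. Rtl1 derives from a retrotransposon and is required in the placenta. The miRNAs on the opposite strand are processed from a maternal antisense transcript, match the Rtl1 message along their whole length, and can direct its cleavage. In brain, miRNAs of the region are known to be abundant in neurons.

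The 7 hairpins spanned 4951 bases (chr12:109590447-109595397, mm10), and all 7 lay inside the coding sequence of Rtl1 (109590172 to 109595403) in GENCODE M21. They therefore fall within an exon of a gene on the minus strand, and the stretch they cover made up 94.6% of that coding sequence. The plus-strand order, which is that of transcription, was Mir431 (109590447 to 109590537), Mir433 (109591715 to 109591838), Mir127 (109592846 to 109592915), Mir434 (109594506 to 109594599), Mir432 (109594956 to 109595030) and Mir136 (109595327 to 109595388). Mir3071 (109595318 to 109595397, minus strand) contained all 62 bases of the Mir136 hairpin on the other strand. The gaps between neighbouring plus-strand hairpins were 1177, 1007, 1590, 356 and 296 bases.

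The mature sequences, from RefSeq (build GRCm38.p6), are shown because the counts below are per hairpin and do not separate its arms. Capitals mark the seed, bases 2 to 8, which pairs with targets. All 7 genes were found in the RefSeq table, with the same positions as in GENCODE.

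miR-431-5p: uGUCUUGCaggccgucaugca
miR-431-3p: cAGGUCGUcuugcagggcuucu
miR-433-5p: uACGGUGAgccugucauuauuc
miR-433-3p: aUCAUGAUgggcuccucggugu
miR-127-5p: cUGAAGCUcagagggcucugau
miR-127-3p: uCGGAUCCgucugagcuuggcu
miR-434-5p: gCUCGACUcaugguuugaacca
miR-434-3p: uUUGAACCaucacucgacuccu
miR-432: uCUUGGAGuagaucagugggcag
miR-136-5p: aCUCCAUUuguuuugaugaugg
miR-136-3p: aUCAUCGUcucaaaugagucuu
miR-3071-5p: aCUCAUUUgagacgaugaugga
miR-3071-3p: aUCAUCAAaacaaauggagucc

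The 13 mature miRNAs carried 13 distinct seeds. None of these seeds occurred in a mature miRNA of another gene among the 1738 in the RefSeq table, so the members form no seed family with each other or with other genes there. The longest stretch that any member shared with a miRNA gene elsewhere was 12 bases.

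Each mature miRNA of the plus strand matched the Rtl1 transcript at exactly 1 place, with full complementarity. The sites for the 3′ arms of the 2 most abundant members are given as they read in the Rtl1 message, with the bases opposite the seed in capitals.

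Rtl1 site of miR-127-3p (chr12:109592888-109592909, minus strand): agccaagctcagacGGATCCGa
Rtl1 site of miR-433-3p (chr12:109591781-109591802, minus strand): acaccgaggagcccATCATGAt

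Both arms of miR-3071, read from the same strand as Rtl1, were instead identical to stretches of the Rtl1 message. miR-136-5p and miR-3071-3p are complementary over 20 bases, and miR-136-3p and miR-3071-5p over 19.

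Replicate 1 held 4517648 sense counts on miRNA genes and replicate 2 held 5979247. Levels are given as counts per 1000000 of these (CPM). For a gene without a count, the level of 3 counts is the upper limit, which is 0.664 CPM in replicate 1 and 0.502 CPM in replicate 2. These limits and all intervals describe counting error alone, because reads were amplified and are not separate molecules. The tables credit no gene with multiply mapping reads, which were 45.9% of replicate 1 and 48.4% of replicate 2. Neuronal marker miRNAs were present, with counts in 10 of 10 genes of the list and 4.81% of miRNA counts in replicate 1 and 5.27% in replicate 2. The list of other organs held 0.0448% and 0.0426%, with Mir133a-1, Mir133a-2 and Mir1a-1 at 0. These 3 genes have a copy that gives the same mature miRNA, whose reads can map to several places and then carry no gene, so their zeros say little about the tissue. The neuronal list also holds genes with copies, so its share can be too low in the same way.

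Together the 7 genes held 4.78% of the miRNA counts in replicate 1 (95% Wilson interval 4.76 to 4.80) and 3.48% in replicate 2 (3.47 to 3.50), a mean of 4.13% ± 0.917 (SD, n = 2). Of these genes, 5 had counts and 2, Mir432 and Mir3071, had none in either library. For comparison, 64.9% of all miRNA genes in the tables had no count, while 49 of the 52 other listed miRNA genes of the Dlk1-Dio3 region had counts. The list leaves out some minus-strand genes that overlap listed genes and, like Mir3071, had 0 counts in both libraries. Mir127 alone made up 76.5% of the members' counts in replicate 1 and 72.8% in replicate 2, and Mir433 a further 18.4% and 21.1%. The remaining 3 detected genes held at most 3.74% of the members' counts each.

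Along the transcript each of the first 3 hairpins stood higher than the one before it, and all hairpins after Mir127 stood lower than Mir127. Mir431, the first in the direction of transcription, whose miRNA promotes axon growth in mouse sensory neurons, reached 748.2 CPM in replicate 1, with 653.8 CPM in replicate 2 (701.0 ± 66.8, SD, n = 2). Mir433 stood at 8805 and 7361 CPM (8083 ± 1022). Mir127, which is needed for normal development of the mouse placenta, stood at 36573 and 25349 CPM (30961 ± 7937). By mean level it ranked 7 among the 2202 miRNA genes. Reads that map to several places are not in this ranking, so genes with copies elsewhere can stand too low in it.

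Past Mir127 the levels did not follow 1 direction. Mir434, a miRNA gene of the same antisense transcript, stood at 1437 and 1303 CPM (1370 ± 95.3). Mir432 had 0 counts in both libraries, although it lies 356 bases after Mir434 and 296 bases before Mir136, which were both detected. Mir136 stood at 224.9 and 156.2 CPM (190.6 ± 48.6), the lowest level among the detected members.

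**Figure D1:**
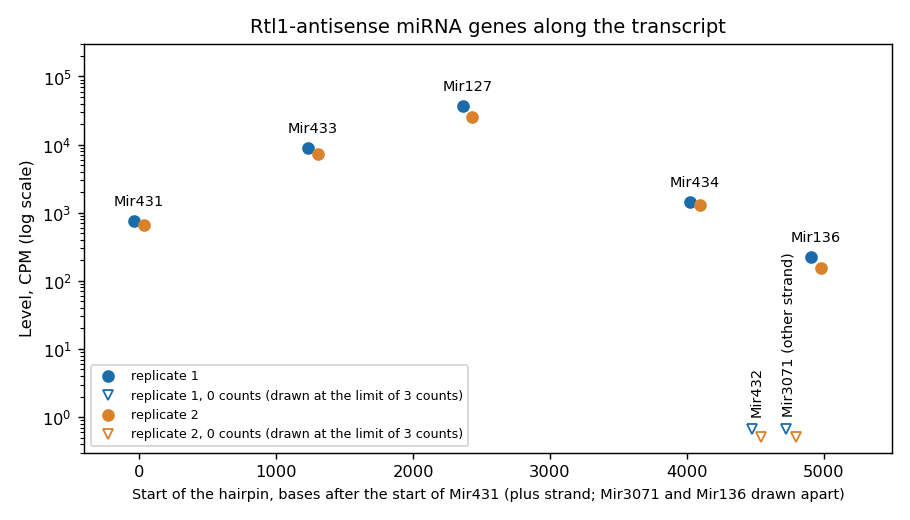
Level of each miRNA gene in CPM (log axis) against the start of its hairpin in bases after the start of Mir431, with 1 point per library, the libraries drawn side by side. Mir127 stands highest in both libraries, at 36573 and 25349 CPM, and the open triangles for Mir432 and Mir3071 mark 0 counts, drawn at the level of 3 counts.

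The steps between neighbours, in read counts, were large against the spread between the libraries. That spread cannot show a bias between sequences that both libraries share. Mir433 had 11.8 times the counts of Mir431 in replicate 1 (95% exact binomial interval 11.4 to 12.2) and 11.3 times in replicate 2 (10.9 to 11.6). Mir127 had 4.15 times the counts of Mir433 in replicate 1 (4.11 to 4.20) and 3.44 times in replicate 2 (3.41 to 3.48). These intervals overlapped between the libraries for the first step and not for the second.

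Mir127 had 25.4 times the counts of Mir434 in replicate 1 (24.8 to 26.1) and 19.5 times in replicate 2 (19.0 to 19.9). Mir434 had 6.39 times the counts of Mir136 in replicate 1 (5.98 to 6.84) and 8.34 times in replicate 2 (7.79 to 8.93), intervals that did not overlap. Against the limit of 3 counts for Mir432 in each library, Mir434 was at least 2165-fold higher in replicate 1 and at least 2596-fold higher in replicate 2. Mir136 was at least 338.7-fold and at least 311.3-fold higher than Mir432 in replicates 1 and 2.

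Ordered by level, the detected members ran Mir127, Mir433, Mir434, Mir431 and Mir136, and no neighbours in this order overlapped between the libraries. The closest pair was Mir434 and Mir431, at 1303 CPM in the lower library of Mir434 and 748.2 CPM in the higher library of Mir431. A read covers a whole mature miRNA, so CPM does not scale with the length of the hairpin. Divided by hairpin length, which lay between 62 bases for Mir136 and 124 bases for Mir433, the levels kept this order. On that scale the means were 44230 CPM per 100 bases for Mir127, 6519 for Mir433, 1458 for Mir434, 770.3 for Mir431 and 307.3 for Mir136.

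The 3 miRNA genes outside the members whose levels lay closest to those of Mir127, by distance in log2(CPM + 0.5) over the 2 libraries, were Mir744, Mirlet7e and Mir99a, which lie on chromosomes 11, 17 and 16. Mir744 reached 39787 CPM in replicate 1, with 28225 CPM in replicate 2, at a distance of 0.197 log2 units. Mirlet7e and Mir99a lay at distances of 0.497 and 0.614, and unlike Mir127 both were lower in replicate 1.

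The members were set against the 52 other listed miRNA genes of the Dlk1-Dio3 region. Of the counts of all these genes, the 7 members held 43.7% in replicate 1 (95% Wilson interval 43.5 to 43.8). In replicate 2 they held 36.8% (36.7 to 36.9), and the other 52 genes held the rest. Mir127 was the highest of these genes in both libraries. Mir433 could not be told apart in level from Mir382, the most abundant of the other genes, which stood at 8315 and 7831 CPM (8073 ± 341.9, SD, n = 2), inside the range of Mir433. Mir487b and Mir770 followed at 7791 ± 701 and 7587 ± 2637 CPM, and their ranges overlapped that of Mir433 as well.

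Of the genes that flank the members, the one upstream stood far below Mir431 and the one downstream overlapped it. Mir3070b, 1766 bases before Mir431, had 20.8 CPM in replicate 1 and 12.7 CPM in replicate 2. The gene before it is named alike, Mir3070a, and whether they share reads was not tested. Reads that map to both would carry no gene, so the level of Mir3070b can be too low. Mir341, 16102 bases after the last member, had 633.5 and 1071 CPM. No other annotated miRNA gene lay between the members.

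**Figure D2:**
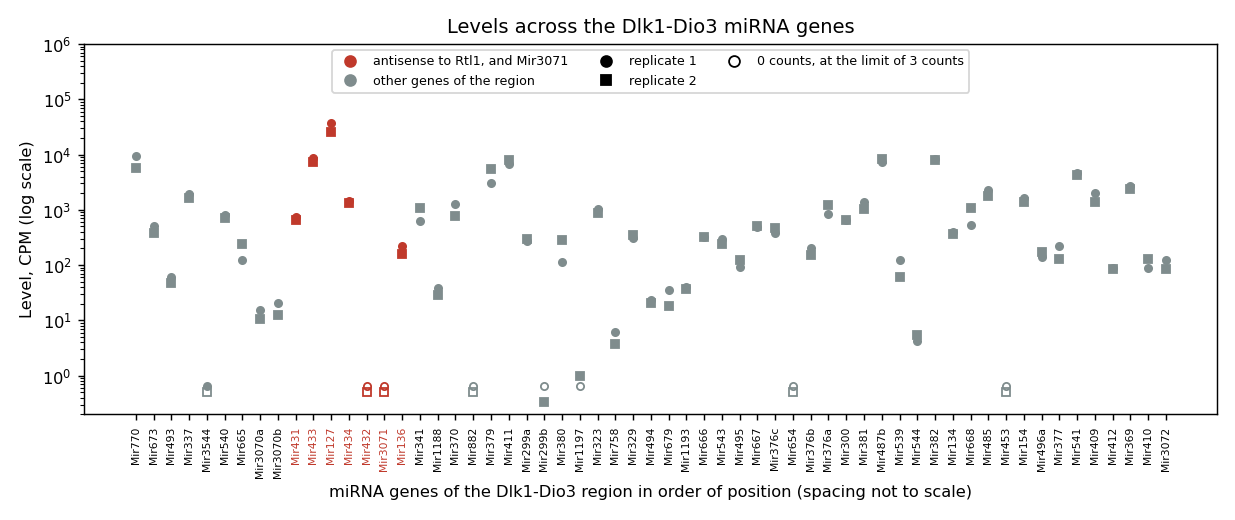
Levels in CPM (log axis) of the 59 miRNA genes of the Dlk1-Dio3 list in order of position, with circles for replicate 1 and squares for replicate 2. The members, in red, hold both the highest gene, Mir127 at 36573 and 25349 CPM, and 2 genes with 0 counts, shown as open symbols at the level of 3 counts. Open grey symbols mark other genes of the region with 0 counts in a library.

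Strand was then compared at the locus that Mir136 and Mir3071 share. Mir136 had 1016 counts in replicate 1 and 934 in replicate 2, and Mir3071 had 0 in both. All reads of the locus thus lay on the Mir136 strand. Taken as up to 3 counts, the 0 counts for Mir3071 allow up to 0.295% of the reads of the locus in replicate 1 and 0.321% in replicate 2. In the antisense column the values were mirrored, with 1016 and 934 counts credited to Mir3071 and 0 to Mir136. In the column without regard to strand both genes had 0 counts, since reads over overlapping genes are left out there as ambiguous.

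At the other 5 hairpins the antisense column, which would hold reads in the direction of Rtl1, was at 0 in both libraries for every gene. These include Mir127, with 165224 and 151567 sense counts. Reads against the strand were rare in general: 2138 miRNA genes without an overlapping gene on the other strand held 121 antisense counts in all in replicate 1 and 200 in replicate 2, and 40 of them had any. A locus with all reads on 1 strand was also common among overlapping genes. Of 32 pairs of miRNA genes on opposite strands, 27 had at least 10 counts in both libraries, 18 of these had all reads on 1 strand in both, and 23 had over 99%.

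**Figure D3:**
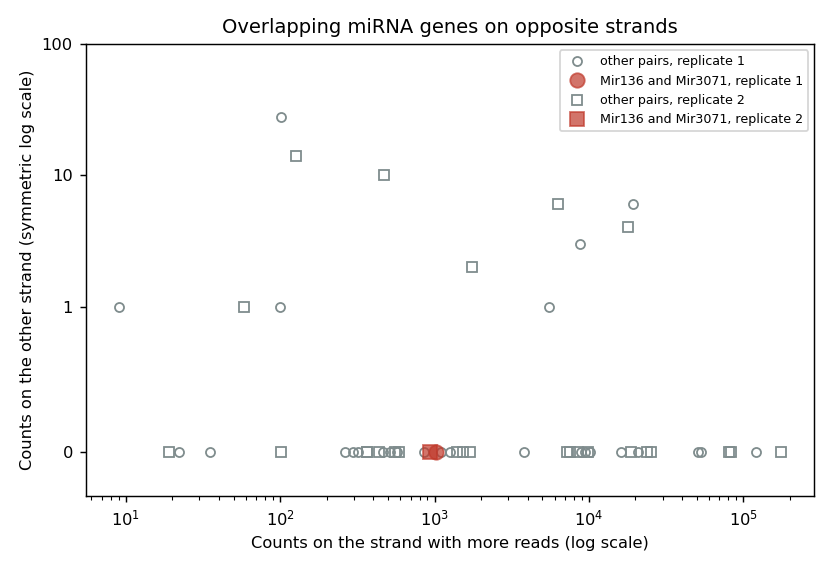
Counts on the strand with more reads (log axis) against counts on the other strand (symmetric log axis) for the 27 pairs of overlapping miRNA genes, with circles for replicate 1 and squares for replicate 2. The Mir136 and Mir3071 pair, in red, lies at 1016 and 934 counts against 0, among many other pairs at 0.

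The replicates were set against each other to see whether the members differed by more than counting error. All 5 detected members were higher in replicate 1, with Fisher's exact test (two-sided), which set a gene's counts against the sum of the others. Benjamini-Hochberg adjustment ran over the 420 genes that reached 10 counts in each library. The test compares the reads of these libraries and no condition. Of all 420 genes, 56.9% passed at an adjusted p of 0.05, 29.8% as higher in replicate 1 and 27.1% as higher in replicate 2. The 5 genes come from 1 transcript and are not independent. The other 2 members had no counts and were not tested.

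Mir127 had a log2 ratio of replicate 1 to replicate 2 of 0.53 (95% exact binomial interval 0.52 to 0.54), a 1.44-fold difference, on the scale log2(CPM + 0.5). Its adjusted p in Fisher's exact test was too small to be stored and came out as 0. Mir136 had a log2 ratio of 0.52 (0.40 to 0.66; adjusted p = 3.5e-15 in Fisher's exact test), close to that of Mir127 although it was far less abundant. The ratio of Mir127 to Mir136 counts was 162.6 in replicate 1 (152.9 to 173.1) and 162.3 in replicate 2 (152.2 to 173.2).

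Mir433, Mir431 and Mir434 differed less. Their log2 ratios were 0.26 for Mir433 (0.24 to 0.28), 0.19 for Mir431 (0.13 to 0.26) and 0.14 for Mir434 (0.09 to 0.19). The adjusted p in Fisher's exact test was 1.8e-147 for Mir433, 2.9e-08 for Mir431 and 1.4e-08 for Mir434. The intervals of Mir127 and Mir136 did not overlap those of the other 3, but they cover counting error alone, and whether the members differed by 1 common factor was not tested against the spread between libraries.

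The differences were ordinary in size for these libraries. A log2 difference at least as large as that of Mir127, in either direction, was found in 29.5% of the tested genes, and the common coefficient of variation between the libraries, from edgeR's dispersion, was 31.2%. The members' median log2 ratio was 0.26, beside 0.15 over the 46 tested genes of the other Dlk1-Dio3 miRNAs and 0.07 over all tested genes. Of those 46 genes, 24 were higher in replicate 1, 13 were higher in replicate 2 and 9 did not pass. Mir770, Mir382 and Mir3070b were higher in replicate 1, at log2 ratios of 0.72, 0.09 and 0.69, and Mir341 and Mir487b were lower in replicate 1, at -0.76 and -0.18.

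The summed share of the other Dlk1-Dio3 genes was 6.17% in replicate 1 and 5.98% in replicate 2, a 1.03-fold difference, beside 1.37-fold for the members and 1.18-fold for the members without Mir127. The summed shares of marker lists differed between the libraries as well. The neuronal list summed to 0.912-fold in replicate 1 relative to replicate 2, yet 5 of its 7 tested genes were higher in replicate 1 and 1 was lower, with a median log2 ratio of 0.06. The microglial and leukocyte list summed to 0.854-fold, with a median log2 ratio of 0.15 over 5 tested genes, of which 2 passed as lower in replicate 1 and 3 did not pass. The endothelial and mural list summed to 0.861-fold (2 genes lower in replicate 1, 1 did not pass). The oligodendrocyte list summed to 0.935-fold (1 higher, 1 lower, 1 did not pass) and the astrocyte-associated list to 0.904-fold (1 higher, 3 lower). The erythroid list was 0.670-fold (2 lower, 1 did not pass) and the choroid plexus and ependyma list 0.742-fold (2 lower, 2 did not pass). Their part in the members' difference was not tested, and in bulk tissue fewer cells of a type and less RNA per cell cannot be told apart.

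**Figure D4:**
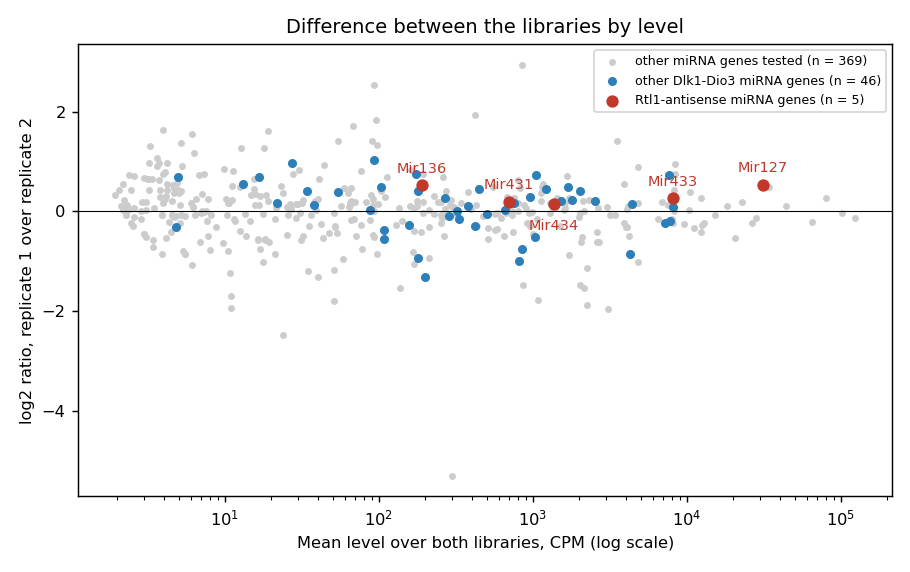
Log2 ratio of replicate 1 over replicate 2 against the mean level in CPM (log axis) for the 420 tested miRNA genes, with 1 point per gene. The 5 members in red lie between 0.14 and 0.53, within the spread of the other Dlk1-Dio3 genes in blue and the remaining genes in grey.

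The hairpins were also compared by predicted folding (RNAfold). The minimum free energy per 100 bases was -50.1 kcal/mol for Mir127, -47.7 for Mir431, -45.5 for Mir136, -43.5 for Mir3071, -39.8 for Mir434, -36.1 for Mir433 and -31.6 for Mir432. Mir432, which had no counts, thus had the weakest predicted fold of the members per base, and Mir127 the strongest. Mir433 was the second most abundant with the second weakest. Mir3071, also without counts, had a stronger predicted fold than the detected Mir434 and Mir433. Whether folding went with level was not tested. The median was -36.9 over all 2202 hairpins, with quartiles of -44.0 and -30.4, and -44.1 over the 195 genes at a mean of 100 CPM or more. GC content lay between 40.3% for Mir136 and 60.4% for Mir431, around a median of 50.8% over all hairpins.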

How the data were processed

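Small RNA libraries of hippocampus, replicates 1 and 2 of 1 group, were each deposited by the authors as a table of whole-number read counts per miRNA gene, not normalized or pooled, over mm10 and GENCODE M21, per the file headers and notes deposited with them. For the aligner, counter, trimming and castaneus alleles, details were not given in the sources used here. The tables have 3 unnamed count columns, taken from their values as counts without regard to strand, sense and antisense. The sense column, the strand column with the larger total, was used. Totals leave out reads without a gene: in the sense column 45.9% and 48.4% of reads mapped to several places, 11.8% and 11.2% were unmapped and 3.60% and 3.69% lay outside miRNA genes.

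All 2202 identifiers matched GENCODE M21. With 1 group, edgeR's quasi-likelihood test has no contrast, so Fisher's exact test (SciPy 1.17.1) compared the libraries, with at least 10 counts in both, a pseudocount of 0.5 CPM for ratios and an adjusted p of 0.05. The procedure was tested on simulated data with counting error alone and the most abundant genes left unchanged. That simulation cannot show how the test behaves under the spread between these libraries. edgeR 4.0.16 gave TMM factors and the dispersion, DESeq2 1.42.0 size factors, and RNAfold 2.7.2 folding energies. The members, gene lists and tests were chosen with earlier results of these data known. Genes named are the members, the flanking and the 3 most abundant other Dlk1-Dio3 genes, and the 3 genes closest in level to Mir127. Mir133a-1, Mir133a-2 and Mir1a-1 are named as list genes at 0, and Mir3070a as a gene that may share reads with Mir3070b. Alternatives were other scalings, filters, pseudocounts, thinning, the column without regard to strand, division by hairpin length and leaving out each replicate.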

Additional observations from a re-analysis of the deposited data

How the results depend on the processing

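No paired analysis was possible because the series holds 1 group. Wherever a member could be tested, no direction or call was lost under the alternatives run. The 49 recomputed log2 ratios stayed positive and past the threshold, between 0.08 and 0.53. Of 159 values recomputed, 7 moved, all of them levels of single members that shifted by more than their SD over the libraries. Mir434, for example, went from 1370 to 1564 CPM with the most abundant gene left out of the total. The column without regard to strand gives no value for Mir136, so 4 members were called there and 3 neighbours in level order did not overlap, against 5 and 4. The summed share was 3.48% without replicate 1 and 4.78% without replicate 2, and 4.12% to 4.71% with other totals and scalings or the column without regard to strand. At a minimum of 100 counts in both libraries, 74.1% of the genes tested passed, and without a filter 10.1%. With 1 library left, levels but no ratios can be given. Depth limits Mir432 and Mir3071 to the bounds printed, and for Mir136 its 1016 and 934 counts set the width of its interval.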
